A study of Mus musculus with 8 samples.

Results

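The collagen genes examined here are 36 of the 52636 genes in the count table, chosen by name and found by their Ensembl identifiers. They were followed in bone marrow mesenchymal stem/progenitor cells (MSPCs), the perivascular stromal cells that supply hematopoietic stem cells with CXCL12 and stem cell factor. Each of the 8 libraries came from 1 mouse of C57BL/6 background, 6 weeks old by the labels (the methods give an older range). The 4 control (CTR) mice were Flk2-cre+ Cxcr4fl/+ and the 4 conditional knockout (cKO) mice were Flk2-cre+ Cxcr4fl/fl. All mice thus carried the Cre, whose promoter is active in hematopoietic progenitors, and at least 1 floxed Cxcr4 allele. All carried a GFP reporter in the stem cell factor gene (Kitl), because the cells were sorted as CD45-, Ter119-, CD31-, CD144-, PDGFRα+ and SCF-GFP+. The question put to these libraries was whether the transcriptome of the niche cells differs when hematopoietic progenitors lack CXCR4. In this sorted bulk RNA, fewer cells of a kind and less RNA per cell cannot be told apart.

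Collagens are trimers of α chains wound into a triple helix, and each chain has a gene of its own. Fibrillar collagens build banded fibrils. Type IV collagen forms the sheet-like network of basement membranes, and types VIII and X form hexagonal short-chain networks. Type VI collagen assembles into beaded filaments at the cell surface. FACITs (fibril-associated collagens with interrupted triple helices) decorate fibrils, type VII collagen anchors basement membranes to them, multiplexins sit in basement membranes, and transmembrane collagens span the plasma membrane. In bone marrow, stromal cells and cells of the bone lineage are known sources of this matrix.

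Total counts per library ranged from 31047344 to 38216877, and 18366 to 20684 genes had at least 1 count. Levels are given as CPM (counts per 1000000 counts of the library) after TMM scaling, and genes are compared with each other only as CPM per kilobase of exon. All 8 markers of MSPCs were counted in every library, with a summed level between 52754 and 65707 CPM. Markers of other cell types were scarce in part. Of 8 chondrocyte markers, Acan, Matn3, Hapln1, Ucma and Chad were at 0 in every library. Comp (31.5 to 99.0 CPM) and Sox9 (12.2 to 41.9 CPM) were counted in every library, and the chondrocyte sum ranged from 47.7 to 117 CPM. Of 7 fibroblast and tendon markers, Dpt and Clec3b were at 0 and the sum reached at most 2.20 CPM. The endothelial sum reached at most 10.1 CPM, with Tek at 0, and the hematopoietic sum ranged from 31.4 to 136 CPM, with Cd3e at 0. The osteoblast sum was high, from 7972 to 14012 CPM, nearly all of it Ibsp, which encodes bone sialoprotein. Cxcr4 itself had 4 to 19 counts in CTR and 0 to 12 counts in cKO libraries, and since its deletion is targeted to hematopoietic cells this does not check the labels.

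The 36 collagen genes together took 1.43% to 1.69% of all counts. Measured per kilobase, 3 classes held most of this. Fibrillar collagens made up 35.9% ± 1.29 (SD, n = 8) of the summed collagen level, beaded filament collagens 35.3% ± 2.29 and the basement membrane network 22.1% ± 1.18. Short-chain network collagens contributed 4.48% ± 0.742 and FACITs 1.75% ± 0.199. The multiplexins gave 0.357% ± 0.0588, the transmembrane collagens 0.118% ± 0.0324 and the anchoring fibril collagen 0.00187% ± 0.00278. These shares depend on the exon length used: with the longest transcript of each gene, the fibrillar share was 47.3% and the beaded filament share 29.5%.

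**Figure D1:**
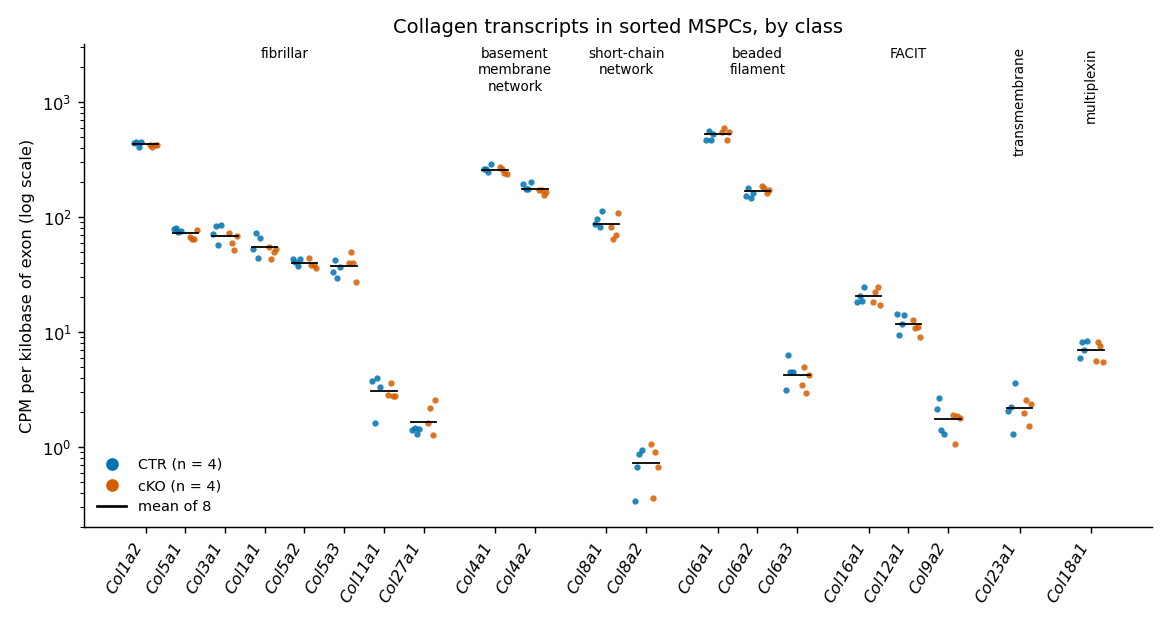
Level of the 20 collagen genes counted in every library, as CPM per kilobase of exon on a log scale, grouped by class. Each point is 1 library (blue CTR, orange cKO) and the line is the mean of 8. Col6a1 and Col1a2 stand at the top, Col6a3 lies far below the other type VI chains, and the CTR and cKO points mostly intermingle.

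Within the classes, a few chains carried nearly the whole level. Col6a1, which encodes a type VI chain, was the most abundant collagen gene at 523 ± 49.7 CPM per kilobase (SD, n = 8), rank 59 of all genes in the table. Col1a2, the α2 chain of type I collagen, followed at 429 ± 18.1 (rank 67), then Col4a1 at 258 ± 17.0 (rank 119), Col4a2 at 177 ± 15.4 (rank 178) and Col6a2 at 167 ± 13.3 (rank 193). Each step from Col6a1 to Col1a2, to Col4a1 and to Col4a2 separated the genes in 8 of 8 libraries with no overlap of their ranges. Col4a2 and Col6a2 could not be ordered over all libraries, as Col4a2 was the higher of the pair in 3 of 8 libraries, all of them CTR. Col8a1 came next at 87.6 ± 17.0, and its range overlapped that of Col5a1. Length mattered most for Col1a2, whose annotated exons together span 12426 bases against 5348 in its longest transcript: by the latter it stood at 996 CPM per kilobase, above Col6a1 at 559.

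A few promoter stretches are shown here for 2 fibrillar genes (Col1a2 and the less abundant Col3a1) and 2 type VI genes (Col6a1 and the less abundant Col6a3). Each is the longest part of the 250 bases before the RefSeq start that no annotated exon covers. They come from RefSeq on GRCm38.p6, read 5′ to 3′ on the strand of the gene. They cover chr6:4505370-4505492 (plus strand) for Col1a2, chr1:45311288-45311537 (plus strand) for Col3a1, chr10:76726169-76726294 (minus strand) for Col6a1 and chr1:90843972-90844221 (minus strand) for Col6a3, and capitals mark matches of a GC box (GGGCGG) or of a TATA box (TATAAA).
Col1a2: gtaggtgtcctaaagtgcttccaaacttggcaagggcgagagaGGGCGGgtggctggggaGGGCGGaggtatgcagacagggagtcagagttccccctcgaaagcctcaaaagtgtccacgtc
Col3a1: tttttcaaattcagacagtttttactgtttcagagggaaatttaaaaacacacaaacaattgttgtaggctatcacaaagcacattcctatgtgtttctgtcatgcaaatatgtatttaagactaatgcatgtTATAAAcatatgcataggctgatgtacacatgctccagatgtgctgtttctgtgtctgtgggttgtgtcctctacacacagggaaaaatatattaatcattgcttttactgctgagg
Col6a1: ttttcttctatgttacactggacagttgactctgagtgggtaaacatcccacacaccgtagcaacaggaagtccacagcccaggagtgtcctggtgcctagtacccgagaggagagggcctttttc
Col6a3: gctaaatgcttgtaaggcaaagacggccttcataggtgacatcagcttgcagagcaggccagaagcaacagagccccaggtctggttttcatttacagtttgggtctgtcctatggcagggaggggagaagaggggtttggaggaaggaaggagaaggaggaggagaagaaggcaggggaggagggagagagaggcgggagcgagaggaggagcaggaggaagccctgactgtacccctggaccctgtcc
The Col1a2 stretch held 2 matches of the GC box and the Col3a1 stretch 1 match of the TATA box. Those of Col6a1 and Col6a3 held neither, nor a CCAAT box (CCAAT), in the bases shown. Over whole 250-base windows and both strands, the GC box was found for 18 of the 29 collagen genes with a window (62.1%) and in 32.7% of 32851 promoters. The CCAAT box was found for 41.4% of these genes and in 33.8% of promoters, and the TATA box for 17.2% and in 12.4%. Col1a2 was among the genes with a CCAAT box, though not within the bases shown. A match of letters is a description and does not show that a factor binds.

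Among fibrillar collagens, Col1a2 had by far the highest level and the smallest spread, with a coefficient of variation (CV) of 4.23%. Its level was 5506, 5627, 5080 and 5600 CPM in CTR replicates 1 to 4 and 5254, 5046, 5268 and 5227 CPM in cKO replicates 1 to 4, the order kept for all genes here, and these ranges overlap. Col1a1, the α1 chain of type I collagen, had 349, 475, 289 and 430 CPM in CTR and 360, 283, 324 and 346 CPM in cKO. Both CTR libraries above 400 CPM stood above all cKO libraries, and the other CTR libraries fell among them. Col3a1, the only chain of type III collagen, had 697, 817, 566 and 831 CPM in CTR and 714, 582, 509 and 674 CPM in cKO.

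Type V collagen, which initiates fibrils and sets their diameter, had all 3 chains present. Col5a1 had 674, 689, 625 and 639 CPM in CTR and 568, 543, 552 and 651 CPM in cKO. Of the cKO libraries, replicate 4 alone lay within the CTR range. Col5a3 had 226, 288, 202 and 251 CPM in CTR and 274, 338, 271 and 187 CPM in cKO, with the lowest and the highest library both cKO. Col5a2 lay between 347 and 425 CPM. The remaining fibrillar genes were low: Col11a1 ranged from 20.8 to 51.1 CPM. Col27a1, whose product is found mainly in cartilage, had 18.3, 18.9, 16.9 and 18.7 CPM in CTR and 20.9, 28.4, 16.6 and 33.1 CPM in cKO, cKO replicates 2 and 4 being the highest.

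In the basement membrane network, only the pair Col4a1 and Col4a2, which together form the common form of type IV collagen, was counted in every library. Col4a1 had 1972, 1942, 1856 and 2147 CPM in CTR and 2016, 1950, 1792 and 1754 CPM in cKO. Col4a2 had 1291, 1163, 1152 and 1339 CPM in CTR and 1141, 1141, 1023 and 1097 CPM in cKO, so that every cKO library lay below every CTR library. The genes lie head to head on chromosome 8 (Col4a1 at 11198423-11312826 on the minus strand, Col4a2 at 11312805-11449287 on the plus strand, GRCm38) and share 22 exonic bases. The other type IV genes, Col4a3 to Col4a6, which make up the specialised basement membranes of kidney and other epithelia, were at 0 counts in 3, 4, 4 and 7 of the 8 libraries. Col4a5, the highest of them per kilobase, had 57 counts in CTR replicate 4, 71, 10 and 7 in cKO replicates 1 to 3 and none in the others.

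Of the short-chain network genes, Col8a1 was abundant and its partner nearly absent. Col8a1 had 677, 761, 641 and 876 CPM in CTR and 640, 501, 552 and 844 CPM in cKO. Col8a2 had 1.52, 2.99, 3.90 and 4.24 CPM in CTR and 4.74, 1.62, 4.05 and 2.98 CPM in cKO. Col10a1, the collagen of hypertrophic cartilage, had 8 and 25 counts in CTR replicates 1 and 3 and none in the others.

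The type VI genes Col6a1, Col6a2 and Col6a3 were all counted in every library, at very different levels. Col6a1 had 2049, 2459, 2033 and 2324 CPM in CTR and 2407, 2594, 2055 and 2417 CPM in cKO. Col6a2 had 1278, 1492, 1230 and 1357 CPM in CTR and 1545, 1476, 1335 and 1437 CPM in cKO. Col6a3, which encodes the largest chain, had 37.6, 74.8, 53.5 and 54.1 CPM in CTR and 41.1, 59.4, 35.2 and 50.5 CPM in cKO. CTR replicate 2 was the highest for Col6a3, and the groups overlapped for each of these genes. None of them shares exonic bases with another annotated gene.

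FACITs were represented by Col16a1, Col12a1 and, at a low level, Col9a2. Col16a1 had 123, 139, 127 and 165 CPM in CTR and 124, 152, 168 and 116 CPM in cKO. Col12a1, which binds type I collagen fibrils, had 219, 144, 180 and 215 CPM in CTR and 195, 166, 169 and 139 CPM in cKO. Col9a2, a chain of cartilage type IX collagen, had 6.68, 8.25, 4.37 and 4.03 CPM in CTR and 5.87, 3.30, 5.77 and 5.50 CPM in cKO, while Col9a1 had no count in any library. A count of 0 at these depths allows up to 0.0785 to 0.0966 CPM, by the limit of 3 counts, which covers counting error only.

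The remaining classes were led by Col18a1, the precursor of endostatin, and Col23a1, a transmembrane collagen. Col18a1 had 41.6, 57.2, 48.9 and 59.2 CPM in CTR and 39.3, 57.2, 52.8 and 38.8 CPM in cKO. Its fellow multiplexin Col15a1 had 5 counts in CTR replicate 2 and none elsewhere. Col23a1 had 11.7, 12.7, 7.43 and 20.6 CPM in CTR and 11.4, 14.6, 8.74 and 13.5 CPM in cKO. The transmembrane genes Col13a1 and Col25a1 were patchy, with 63 and 4 counts of Col13a1 in CTR replicates 1 and 2, 32 in cKO replicate 1 and none in the others. Col25a1 had 59 and 66 counts in CTR replicates 1 and 4, 74, 7 and 9 in cKO replicates 1, 2 and 4 and none in the others. Col7a1, the anchoring fibril collagen of skin, had 9, 56 and 22 counts in CTR replicates 1 to 3, 15 in cKO replicate 4 and none in the others.

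In all, 20 of the 36 genes had a count in every library and were tested, and 16 were not. Of these 16, Col9a1 and Col17a1, a collagen of epithelial hemidesmosomes, had no count at all, and the highest count of any of the other 14 was 84 (Col14a1, CTR replicate 3). The collagens of the kidney, skin and hypertrophic cartilage named above were therefore all in the untested group. Collagen genes outside the 36 were also low: Col2a1, the main collagen of cartilage, ranged from 0.721 to 7.42 CPM, and Col19a1 had no count.

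**Figure D2:**
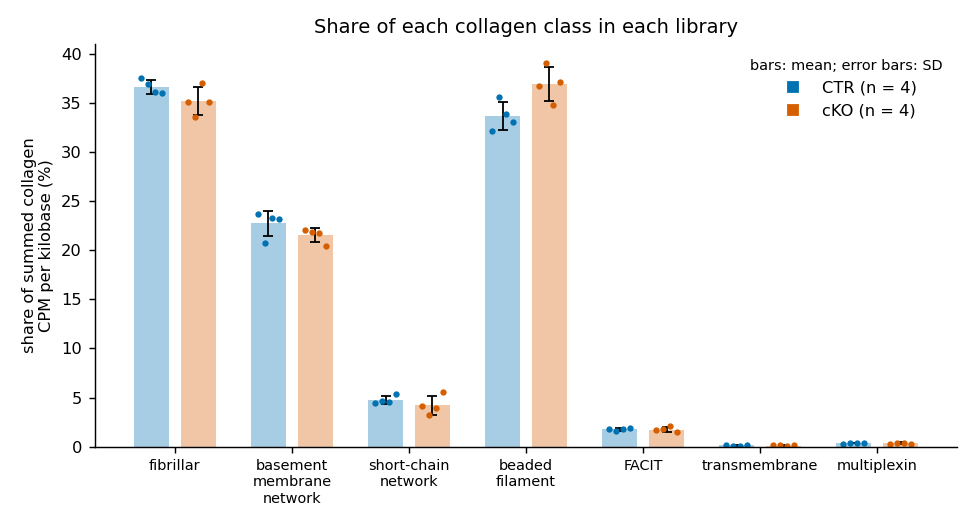
Share of each collagen class in the summed collagen CPM per kilobase, in percent. Points are libraries, bars are the mean of 4 and error bars the SD. The anchoring fibril class, at 0.00187%, is left out. Fibrillar and beaded filament collagens are the largest classes in every library, and the beaded filament share is 33.7% in CTR and 36.9% in cKO with overlapping points.

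Chains of 1 collagen type, and Col1a2 with Col3a1 of another type, were compared as ratios of their CPM per kilobase. The type IV pair kept the steadiest proportion after type VI: Col4a1 exceeded Col4a2 by 1.47 ± 0.0741 times (SD, n = 8), with a CV of 5.05%. The ratio of Col6a1 to Col6a2, which are neighbours on chromosome 10, was 3.13 ± 0.143, with a CV of 4.57%. These spreads were smaller than those of the single genes, whose CVs were 6.56% and 8.70% for Col4a1 and Col4a2 and 9.49% and 7.96% for Col6a1 and Col6a2. The ratio of Col6a1 to Col6a3 was 129 ± 25.9 and ranged from 89.8 to 160. As background, the common form of type VI collagen is built from 1 chain of each gene.

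Type I collagen protein holds more α1 than α2 chains. In these libraries Col1a2 exceeded Col1a1 in every library, by 8.06 ± 1.10 times per kilobase, and by 16.9 times with the longest transcripts. Neither gene shares exonic bases with another annotated gene. Col1a2 exceeded Col3a1 by 6.38 ± 0.954 times. Within type V, Col5a1 exceeded Col5a2 by 1.82 ± 0.196 times and Col5a3 by 2.03 ± 0.505 times. Col8a1 exceeded Col8a2 by 139 ± 60.4 times, the widest spread of these ratios with a CV of 43.6%. By genotype the ratios overlapped throughout: Col4a1 to Col4a2, for example, was 1.42 ± 0.0519 in CTR and 1.51 ± 0.0670 in cKO (SD, n = 4 each), and Col1a2 to Col1a1 was 7.69 ± 1.38 and 8.42 ± 0.765.

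**Figure D3:**
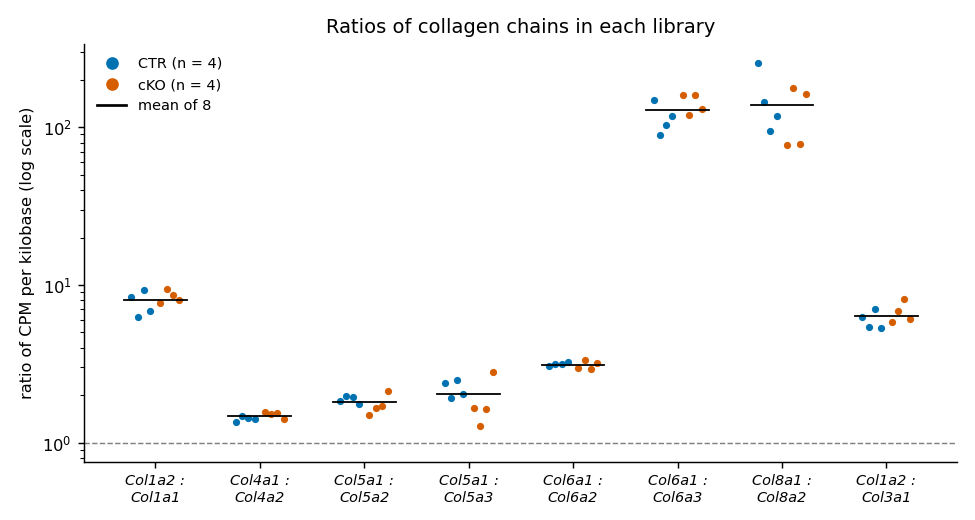
Ratio of CPM per kilobase between pairs of collagen chains, on a log scale, in each of 8 libraries (blue CTR, orange cKO), with the mean of 8 as a line. The dashed line marks equal levels. The Col4a1 to Col4a2 and Col6a1 to Col6a2 ratios form tight groups, while Col6a1 to Col6a3 and Col8a1 to Col8a2 lie near 129 and 139 and spread widely.

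Among mice, collagen levels varied about as much as those of other genes. The median CV over all 8 libraries was 17.2% for the 20 genes tested and 20.6% for all 14598 genes tested. Among genes of at least 100 CPM on average it was 9.49% for 13 collagen genes and 11.7% for 1750 genes.

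Between CTR and cKO mice, no collagen gene passed the test over all genes, and most estimates were small. None of the 20 genes passed the threshold of 0.05 for the adjusted p in edgeR's quasi-likelihood test, where the share over all 14598 genes was 0%. The smallest adjusted p was 0.999. In limma-voom, 0 of these genes and 0 of all genes were called. DESeq2 also called 0 of the 20, where its Wald test called 23 of all 14598 genes. Its likelihood ratio test, in a fit described below, called 0 of the 20 and 47 of all genes. Without adjustment in edgeR, 0 of 20 had p under 0.05, against 4.43% of all genes. Limits on the differences were fairly narrow: the 95% interval of the log2 fold change lay within 1 on either side of 0 for 19 of 20 genes (71.7% of all genes), the exception being Col8a2, and within 0.5 for 8 of 20 (34.2% of all genes).

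**Figure D4:**
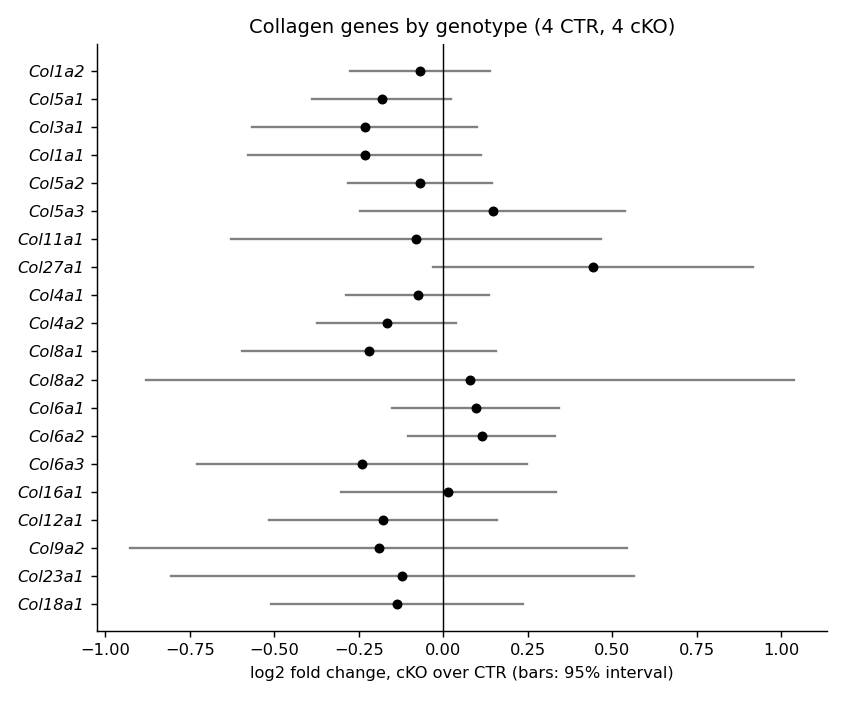
Log2 fold change of cKO over CTR for the 20 collagen genes tested, with 95% intervals from edgeR. Every interval includes 0, and 14 of the 20 estimates lie below 0, from -0.24 for Col6a3 to 0.44 for Col27a1.

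The estimates lay slightly below 0 on balance. The log2 fold change was below 0 for 14 genes and above 0 for 6, against 50.2% of all genes below 0, with a median of -0.10 over the 20 genes and -0.0013 over all genes. The lowest values were -0.24 (SE 0.22) for Col6a3, and -0.23 for both Col3a1 (SE 0.15) and Col1a1 (SE 0.15). The highest were 0.44 (SE 0.21) for Col27a1, 0.15 (SE 0.18) for Col5a3 and 0.11 (SE 0.098) for Col6a2. For the abundant genes, the log2 fold change was -0.069 (95% interval -0.28 to 0.14) for Col1a2, 0.095 (-0.15 to 0.34) for Col6a1 and -0.076 (-0.29 to 0.13) for Col4a1.

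Col4a2 was the only one of the 20 genes whose groups did not overlap, 1 of 20 where 2.61% of all genes did so in either direction and 1.27% with cKO lower. Its log2 fold change was -0.17 (SE 0.093), the exact two-sided permutation p was 0.0286, the smallest that 70 assignments allow, and edgeR gave an adjusted p of 0.999. Libraries also did not overlap for S100b, a gene of Schwann cells among others, at 38.6 to 42.0 CPM in CTR and 47.2 to 49.6 CPM in cKO, while the Schwann cell marker Sox10 had a count in 1 library. The sum of 6 smooth muscle and pericyte markers was 25.8 to 67.7 CPM in CTR and 13.5 to 44.5 CPM in cKO, with overlap. The part of these markers in the result was not tested.

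By class, differences between genotypes were of the size of the spread within them. The summed level of fibrillar collagens averaged 7919 ± 513 CPM over the CTR and 7432 ± 182 CPM over the cKO libraries (± SD), with a difference of -0.089 between the means of the log2 values, the scale of all the differences here. The basement membrane network had 3217 ± 209 and 2980 ± 172 CPM (difference -0.11), the short-chain network 742 ± 105 and 637 ± 152 CPM (-0.24) and FACITs 335 ± 40.6 and 314 ± 35.6 CPM (-0.095). The differences were -0.090 for transmembrane collagens and -0.15 for multiplexins. Over all 8 libraries, beaded filament collagens stood apart in sign, at 3610 ± 334 CPM in CTR and 3863 ± 306 CPM in cKO (0.099). This sum followed Col6a1 and Col6a2, whereas the estimate for Col6a3 was below 0 (-0.24). Within the mice of title numbers 26-32, described next, the differences were -0.17 for fibrillar and 0.050 for beaded filament collagens, and within those of 67-86 they were -0.011 and 0.15. For FACITs, transmembrane collagens and multiplexins they were -0.20, -0.25 and -0.31 within 26-32. Within 67-86 these classes too lay above 0, at 0.010, 0.070 and 0.015.

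The titles give each mouse a number, 26 to 32 for 2 CTR and 2 cKO mice and 67 to 86 for the others, and the labels do not say what it stands for. With genotype as a term, 0 of 20 collagen genes passed the threshold between these title number groups, where 0.0137% of all genes did. Without adjustment 4 genes had p under 0.05, all lower in 67-86, which is 4 of 20 against 11.6% of all genes in either direction and 6.5% lower. Col6a3 had 74.8, 54.1, 59.4 and 50.5 CPM in 26-32 and 37.6, 53.5, 41.1 and 35.2 CPM in 67-86, a log2 fold change of -0.51 (SE 0.15, adjusted p = 0.273). CTR replicate 3 alone reached into the higher group.

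The type VI partners of Col6a3 among the 36 had log2 fold changes of -0.20 (SE 0.083, adjusted p = 0.409) for Col6a1 and -0.10 (SE 0.086, adjusted p = 0.683) for Col6a2. Of the type VI genes outside the 36, Col6a5 had 19.9, 10.1, 10.7 and 12.2 CPM in 26-32 and 4.26, 3.22, 9.47 and 8.44 CPM in 67-86, without overlap (log2 fold change -1.17, SE 0.39, adjusted p = 0.317), and Col6a4 had a log2 fold change of 1.04 (SE 0.59). Col23a1 was at 12.7 to 20.6 CPM in 26-32 and 7.43 to 11.7 CPM in 67-86, the only one of the 20 genes without overlap (log2 fold change -0.64, SE 0.24, adjusted p = 0.370), where 7.69% of all genes did not overlap and 3.4% were lower in this way. Col27a1 had a log2 fold change of -0.41 (SE 0.18, adjusted p = 0.424), through the 2 cKO libraries of 26-32: the difference was -0.72 within cKO and -0.095 within CTR. In all, 15 of 20 estimates lay below 0, against 51% of all genes.

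Marker sums of other cells did not all tend the same way between the title number groups. The hematopoietic sum was 31.4 to 93.2 CPM in 26-32 and 71.7 to 136 CPM in 67-86, and the chondrocyte and endothelial sums overlapped. That of the MSPC markers was 52754 to 59295 CPM in 26-32 and 58421 to 65707 CPM in 67-86. Smooth muscle and osteoblast sums tended to be higher in 26-32. The sum of 6 smooth muscle and pericyte markers was 28.6 to 67.7 CPM in 26-32 and 13.5 to 30.1 CPM in 67-86, with overlap. Myh11 had 8.16 to 18.8 CPM in 26-32 and at most 3.78 CPM in 67-86, where it was at 0 in both cKO libraries. Rgs5, Acta2, Tagln, Cspg4 and Mcam overlapped between the title number groups. This sum also differed by genotype within each group. In 26-32 it was 53.3 and 67.7 CPM in CTR against 28.6 and 44.5 CPM in cKO. In 67-86 it was 30.1 and 25.8 CPM in CTR against 19.0 and 13.5 CPM in cKO. Of the osteoblast markers, Ibsp, which carried the sum, had 10720 to 13762 CPM in 26-32 and 7736 to 10347 CPM in 67-86, whereas Sp7 had 51.9 to 70.1 CPM in 26-32 and 49.2 to 101 CPM in 67-86 and Phex overlapped as well. Their part in these results was not tested.

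**Figure D5:**
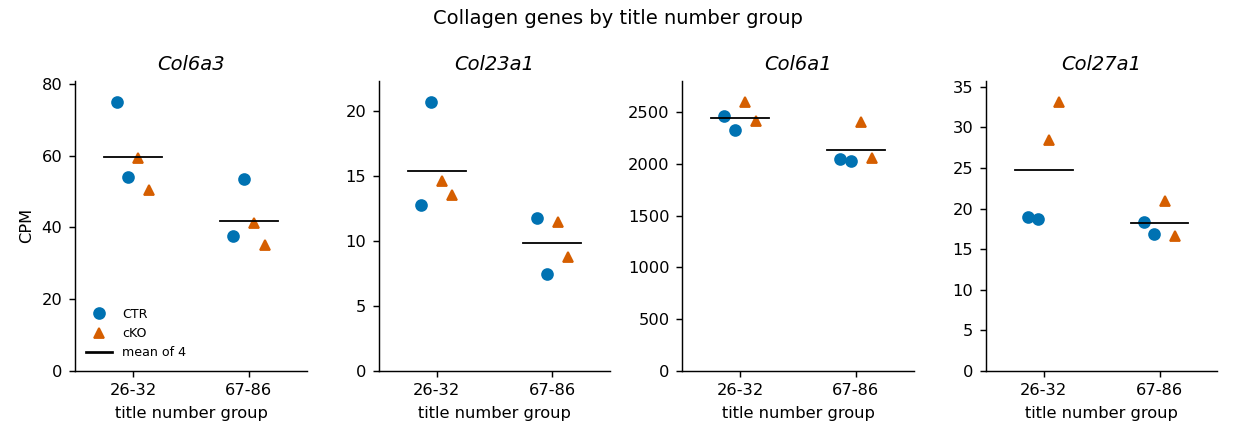
CPM of Col6a3, Col23a1, Col6a1 and Col27a1 in the libraries of title numbers 26-32 and 67-86 (circles CTR, triangles cKO, lines the mean of 4), on axes that start at 0. The 67-86 group is lower on average for each gene, without overlap for Col23a1, and Col27a1 is high in the 2 cKO libraries of 26-32 alone.

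The machinery that makes and assembles collagen was present throughout. Of 19 genes for chain modification and folding, 17 were counted in every library, among them P4hb, a subunit of prolyl 4-hydroxylase, at 939 to 1306 CPM and Serpinh1, the collagen chaperone HSP47, at 805 to 1398 CPM. All 8 genes of procollagen export, 12 of 14 of propeptide processing and crosslinking, 7 of 10 collagen receptors and 8 of 9 fibril-binding proteoglycans were tested. Adamts2, the procollagen N-proteinase, had 1921 to 2233 CPM, Lox, which crosslinks fibrils, 813 to 1595 CPM, and Sparc, a collagen-binding glycoprotein, 4087 to 6905 CPM. Itgb1, the β1 chain of the collagen-binding integrins, had 1082 to 1368 CPM, while the platelet and leukocyte receptors Gp6 and Lair1 had counts in 1 and 2 libraries.

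By genotype, 0 of these 17, 8, 12, 7 and 8 genes passed the threshold, as did 0 of the 4 tested collagen genes outside the 36. Without adjustment, p was under 0.05 for 1 of 8 export genes, 1 of 8 proteoglycans and 1 of the 4 other collagen genes, all lower in cKO. It was so for 0 of the 17, 12 and 7 genes of the remaining lists. Of all genes, 4.43% had such a p in either direction and 2.08% were lower in cKO. Klhl12, an adaptor for the ubiquitin ligase that enlarges transport vesicles for procollagen, had 27.2, 29.0, 29.0 and 26.1 CPM in CTR and 15.1, 23.1, 16.0 and 19.0 CPM in cKO (log2 fold change -0.61, SE 0.16, adjusted p = 0.999 in edgeR). Its groups did not overlap, and DESeq2's likelihood ratio test with title number group gave it an adjusted p of 0.0486, in a fit that called 0.322% of all genes. Dcn, the proteoglycan decorin, had a log2 fold change of -0.34 (SE 0.15), and Col6a4 one of -1.56 (SE 0.65) at 0.313 to 5.91 CPM. The groups also did not overlap for the proteoglycan biglycan, Bgn, at 2588 to 2825 CPM in CTR and 2253 to 2561 CPM in cKO (log2 fold change -0.18, SE 0.091, adjusted p = 0.999 in edgeR). Klhl12 and Bgn were the only tested genes of these lists without overlap. Of all genes, 2.61% did not overlap in either direction and 1.27% with cKO lower.

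By title number group, again 0 genes of these lists passed the threshold. Chain modification and folding genes were mostly higher in 67-86, with 14 of 17 estimates above 0, against 49% of all genes, and a median of 0.16, against -0.0065. Before adjustment 5 of the 17 had p under 0.05, all higher in 67-86, against 11.6% of all genes in either direction and 5.1% higher. P3h1, a prolyl 3-hydroxylase, had 58.7, 56.8, 63.3 and 59.1 CPM in 26-32 and 73.3, 90.7, 104 and 106 CPM in 67-86 (log2 fold change 0.64, SE 0.10, adjusted p = 0.112). The others were P4hb (0.30), Plod3 (0.27), Colgalt1 (0.63) and Fkbp10 (0.25), which hydroxylate, glycosylate or fold the chains. Lox stood at 1307 to 1595 CPM in 67-86 and 813 to 1304 CPM in 26-32 (log2 fold change 0.48, adjusted p = 0.266).

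Fibril-binding and processing genes were evenly split, with 4 of 8 and 6 of 12 estimates below 0, against 51% of all genes. Before adjustment in edgeR, 2 of the 8 and 1 of the 12 had p under 0.05 and were lower in 67-86, against 6.5% of all genes. Of the 12, 1 (Lox) was higher in this way. Lum, the proteoglycan lumican, had 289, 218, 188 and 182 CPM in 26-32 and 164, 141, 131 and 109 CPM in 67-86 (log2 fold change -0.67, SE 0.12, adjusted p = 0.112). Dcn had a log2 fold change of -0.38 (adjusted p = 0.204) and Adamts14, a procollagen N-proteinase, one of -0.95 (adjusted p = 0.208). DESeq2's Wald test called P3h1, Lum, Dcn, Adamts14 and Col6a5, in a fit that called 2.6% of all genes.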

How the data were processed

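RNA from sorted MSPCs of 4 CTR and 4 cKO mice was poly(A)-selected and sequenced. Reads were trimmed, aligned with HISAT2 to GRCm38 (mm10) and summarized per gene with HTSeq-count by the authors, who deposited raw read counts without normalization. Versions of these tools are not given in the sources used here. Of 52636 genes, 52403 were matched to a symbol.

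The 14598 genes counted at least once in each library entered edgeR 4.0.16 in R 4.3.3 (TMM, glmQLFit and glmQLFTest, Benjamini-Hochberg adjustment over all genes, threshold 0.05) on all 8 libraries, with genotype alone, or with title number group and genotype. Intervals are 95%, from the standard error and the fitted degrees of freedom. Single genes were also tested by exact permutation of the libraries. CPM were divided by the bases of all annotated exons of a gene (GENCODE M21, GRCm38, a release other than the one the methods name). Values are given in every library for the 3 highest genes per class by CPM per kilobase, the 3 largest rises and falls by genotype among the 36, and any of the 36 past the threshold in edgeR, of which there were 0. Other values, including those of the title number groups and of genes outside the 36, were chosen after they were seen. The 36 genes and all lists were chosen with earlier results of these data known. DESeq2 1.42.0, limma-voom (limma 3.58.1), other scalings and filters, added terms, left-out libraries and another gene length were tried as alternatives. Scripts were tested on simulated data. Whether the counting used strand is not given in the sources used here.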

Additional observations from a re-analysis of the deposited data

Results flagged for a closer look

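In 70 groups of 4 libraries (20 genes, 8 ratios and 7 class sums in each genotype), a library was set apart from the other 3 of its group in 2 cases, where chance gives about 3.5. Both concern the second cKO library. Col11a1, a minor fibrillar chain, had 46.3 CPM in it and 35.1 to 36.2 CPM in the other cKO libraries. Col9a2, a type IX chain, had 3.30 CPM in it and 5.50 to 5.87 CPM in the others.

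Col8a2 differed by genotype in opposite directions in the title number groups. Every cKO library was below every CTR library in 26-32, with a mean difference of -0.70 on the log2 scale, and above every CTR library in 67-86, with a difference of 0.85. Each side held only 2 libraries, and the closest pairs nearly tied. In 26-32 these were 2.99 CPM in CTR replicate 2 and 2.98 CPM in cKO replicate 4. In 67-86 they were 3.90 CPM in CTR replicate 3 and 4.05 CPM in cKO replicate 3. How often 2 against 2 libraries separate in this way among 20 genes was not worked out. This difference between the groups was not tested, and the gene lay between 1.52 and 4.74 CPM.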

How the results depend on the processing

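No collagen gene of the 36 passed the threshold in any of the 19 alternatives by genotype, where the smallest adjusted p was 0.730, nor in any of the 17 by title number group, where it was 0.0778 (Col6a3, DESeq2 Wald test). Of 380 alternative log2 fold changes by genotype, 368 kept their direction and 12 did not, all of them on leaving out 1 library: the estimates then ranged from -0.30 to 0.043 for Col11a1, -0.15 to 0.31 for Col8a2, -0.34 to 0.018 for Col9a2, -0.085 to 0.11 for Col16a1 and -0.32 to 0.18 for Col23a1. The cause was not tested.

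Over all genes, the genotype count of 0 became 1 with no filter, with filterByExpr or with a mean of 1 CPM, 23 with DESeq2's Wald test and 47 with its likelihood ratio test with title number group. The last called 1 export gene, Klhl12 (adjusted p = 0.0486). The title number group count of 2 became 1 with RLE scaling, 4 with no filter, 380 with DESeq2's Wald test and 0 without the genotype term, and ranged from 0 to 4 with 1 library left out. DESeq2's Wald test called 1 gene outside the 36 (Col6a5), 1 of chain modification (P3h1), 1 of processing (Adamts14) and 2 proteoglycans (Dcn and Lum).

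With the longest transcript as length, the shares were 47.3% (fibrillar), 16.5% (basement membrane), 29.5% (beaded filament) and 0.0852% (transmembrane). Without length correction they were 49.2%, 19.9% and 24.0% for the first 3, and 2.08% for FACITs. With the longest transcript, the ratios were 16.9 for Col1a2 to Col1a1, 1.61 for Col4a1 to Col4a2, 1.27 for Col5a1 to Col5a2, 1.97 for Col6a1 to Col6a2, 205 for Col8a1 to Col8a2 and 8.41 for Col1a2 to Col3a1. The fibrillar genotype difference was -0.17 within 26-32 and -0.011 within 67-86.

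Replicate numbers were not taken as pairs, although same-numbered CTR and cKO libraries lie in the same title number group: their deviations correlated at 0.147, 0.194, 0.0925 and 0.0631 over genes, and 6 of 8 libraries correlated best with their own number. With the replicate number as a block, 0 collagen genes and 0 of all genes were called by genotype. The block could not be fitted with title number group, which it contains. Genes at few counts, such as Col8a2, have wide intervals at this depth.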
